A study of Mus musculus with 32 samples.

Results

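The genes described here are 42 mouse genes of DNA repair and the damage checkpoint, chosen by symbol: a probe set belonged to a gene where the array annotation gave it that symbol alone. Of the 42 genes, 41 had at least 1 probe set, and the remaining gene was not analysed here. These 41 genes had 97 of the 45037 probe sets and were 41 of the 18193 genes on the 2 chip types (70 probe sets on chip type A and 27 on chip type B). Of the 41 genes, 37 had a representative probe set that passed the filter on low signals and were tested, out of 13458 genes tested in all. Rad52, Xrcc5, Ogg1 and Xpa did not pass and are given below by their signals.

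Mouse bone marrow was profiled on Affymetrix MOE430A and MOE430B arrays, with 16 samples and 32 arrays from 6 populations. The stem-enriched population (Lin-Sca-1+cKit+) and the cKit-positive population (Lin-Sca-1-cKit+), which holds progenitors further along in differentiation, were sorted by flow cytometry, as was the cKit-negative population (Lin-Sca-1-cKit-), which the labels describe as likely to lean towards the lymphoid lineage. The lineage-depleted population was enriched with a negative selection kit and not sorted, and total marrow was neither enriched nor sorted. Each of these 5 populations had 3 samples, and a sorted Sca-1+cKit- population had 1. The sorted gates are mixtures defined by surface proteins, so the stem-enriched samples were rich in stem and progenitor cells and were not stem cells alone. The labels do not state how many animals were used, so p-values measure the spread between these samples, which may be technical.

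Cells repair DNA by pathways that differ in the lesion they act on. Base excision repair replaces single damaged bases, nucleotide excision repair cuts out distorting adducts, mismatch repair corrects replication errors, homologous recombination and end joining rejoin broken chromosomes, and the Fanconi anemia pathway resolves links between the strands. Checkpoint kinases sense damage and halt the cell cycle, and inherited loss of several of these genes is known to impair blood formation.

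All values are log2 of the deposited array signal, with signals under a floor raised to it (log2 7.34 on chip type A and 8.07 on chip type B). Signals of different probe sets were not set against each other. In bulk samples such as these, fewer cells of a type and less RNA per cell cannot be told apart. One library stood apart: cKit-positive replicate 2 correlated with the other 15 samples at r = 0.57 to 0.69, against 0.74 to 0.93 for the 105 other pairs. Its Gapdh log2 ratio of 3' to 5' signal on chip type A was 0.38, where the other 15 samples had 2.68 to 4.17, and results are therefore also given without it. The same ratio averaged 3.99 ± 0.17 in stem-enriched, 2.08 ± 1.49 in cKit-positive, 3.09 ± 0.22 in cKit-negative, 3.34 ± 0.28 in lineage-depleted and 3.12 ± 0.33 in total marrow samples (SD, n = 3 each), and its part in the results was not tested beyond a fit with it as a covariate. Kit averaged 12.24 in stem-enriched and 12.19 in cKit-positive samples, against 9.79 in cKit-negative, 11.70 in lineage-depleted and 10.82 in total marrow samples. The mean of 10 T and NK cell markers (of 12 listed) was 8.30 to 8.91 in stem-enriched, 8.41 to 9.45 in cKit-positive, 11.13 to 11.78 in cKit-negative, 10.25 to 10.69 in lineage-depleted and 9.45 to 9.79 in total marrow samples. The mean of 12 granulocyte markers (of 12) was 11.94 to 13.08 in stem-enriched, 12.16 to 13.11 in cKit-positive, 14.48 to 14.87 in cKit-negative, 14.17 to 15.09 in lineage-depleted and 15.32 to 15.58 in total marrow samples. The mean of 9 stem and progenitor markers (of 9 listed) was 12.26 to 12.71 in stem-enriched and 10.72 to 11.02 in cKit-positive samples. It was 9.71 to 10.25 in cKit-negative, 10.96 to 11.13 in lineage-depleted and 9.70 to 10.09 in total marrow samples. Of that list, Procr was at 10.60 in stem-enriched samples, 7.93 in cKit-positive samples and at or near the floor in the others. Gata2 was highest in cKit-negative samples (12.81, against 12.30 in stem-enriched samples). Of the B-lineage markers, Rag2 was at the floor in every population, while Dntt was at 13.22 in stem-enriched samples. The part of these cell types in the results below was not tested.

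Most of the repair and checkpoint genes spanned less than 1 log2 unit over the 5 populations. The difference between the highest and the lowest population mean had a median of 0.78 over the 37 genes and 0.95 over all 13458. It exceeded 1 log2 unit in 10 of the 37 (27.0%) and in 46.2% of all tested genes. The mean level of the 37 had a median of 11.26, against 10.61 for all tested genes. The F test over the 5 populations (limma, adjusted p under 0.05) called 7 of the 37 (18.9%), beside 20.0% of all tested genes, so the share of repair genes that differed was near the background. These were Apex1, Xpc, Parp1, Rad50, Lig4, Rad51c and Xrcc3, in order of adjusted p. Lig4 passed the filter only through samples where it was high, so its place in this and later counts was fixed in advance. At an unadjusted p under 0.05 the count was 14. Counts at an unadjusted p, here and below, have no share of all tested genes beside them. None is read as a result about these genes. Without cKit-positive replicate 2 the F test called 12 of the 37, while among all 28949 tested probe sets 7113 were called without it and 4947 with it. Counts of calls below that leave it out have no share of all tested genes beside them. They are not read as particular to the repair genes. By role, 2 of 6 tested genes of base excision and single-strand break repair were called, 1 of 5 of nucleotide excision repair, 3 of 9 of homologous recombination, 1 of 4 of end joining, and none of 5 checkpoint genes, 5 Fanconi anemia genes or 3 mismatch repair genes.

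**Figure D1:**
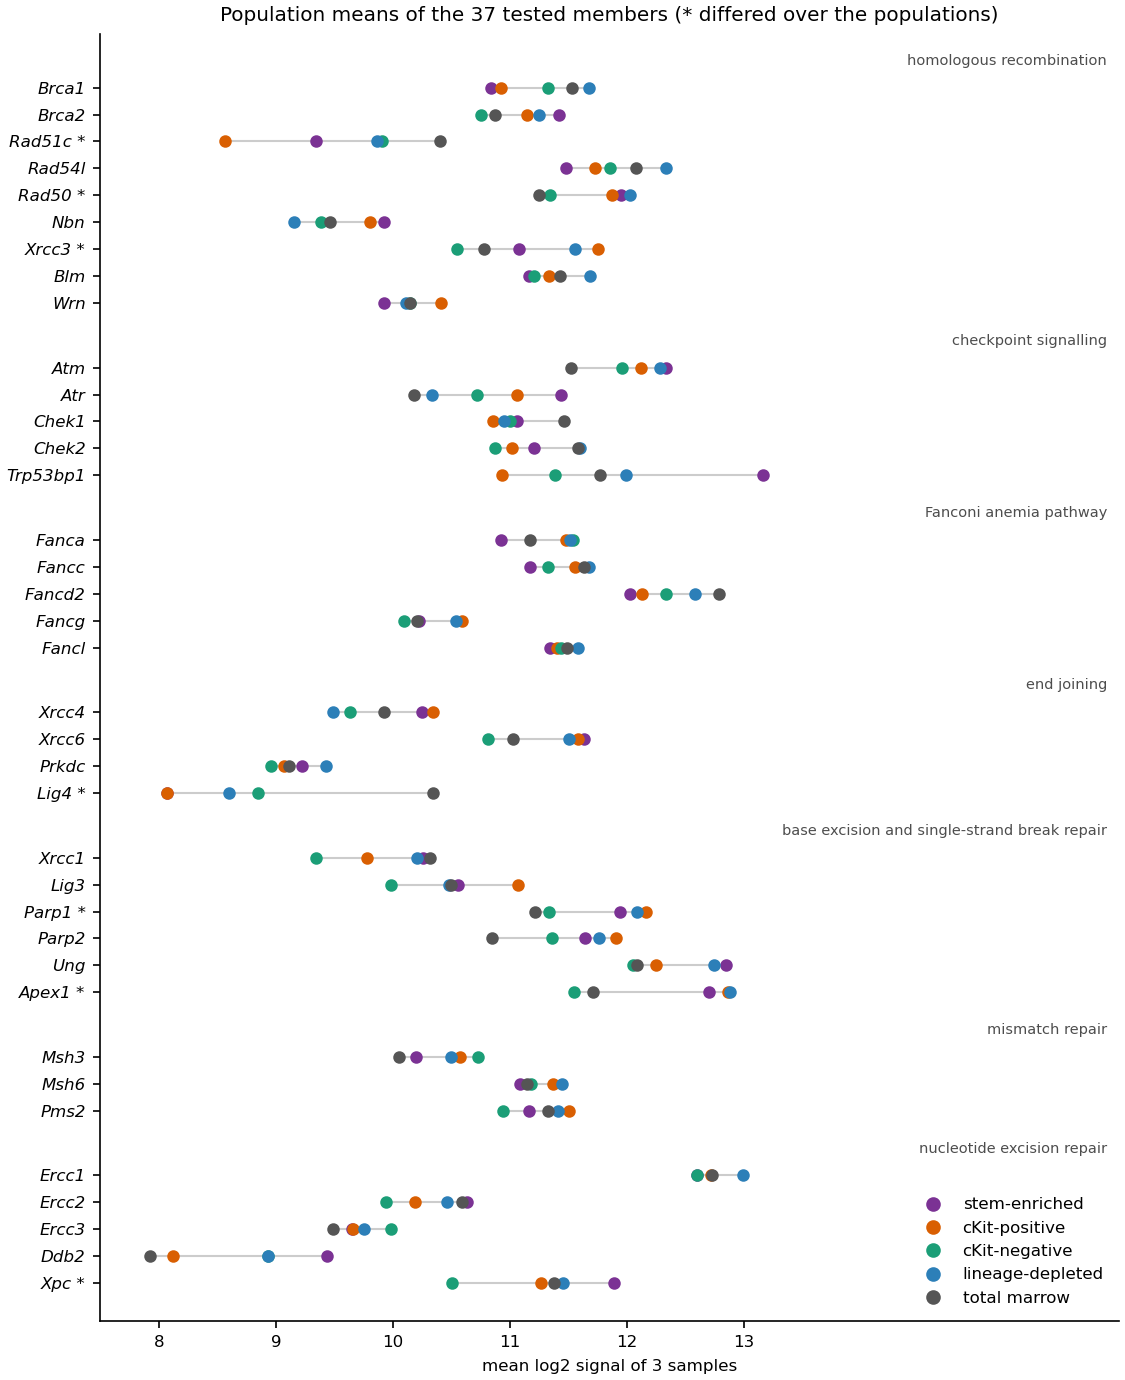
Mean log2 signal of 3 samples in each of the 5 populations (colours) for the 37 tested genes, grouped by role, on a horizontal axis in log2 units, with an asterisk on the 7 genes called by the F test; for Lig4 the stem-enriched point lies under the cKit-positive point, both at the floor. Most genes span less than 1 log2 unit, and Trp53bp1, Lig4 and Rad51c span the most.

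Between stem-enriched and cKit-positive samples, both immature sorted populations, none of the 37 genes passed the test. In stem-enriched minus cKit-positive samples, limma called 0 higher and 0 lower, beside 1.71% higher and 0.676% lower of all tested genes, and 6 genes had an unadjusted p under 0.05. Leaving out cKit-positive replicate 1, 2 or 3 gave 2, 1 and 1 calls. The calls lay in comparisons that include cKit-negative cells or total marrow. In stem-enriched minus cKit-negative samples, 3 genes were higher (Apex1, Xpc and Rad50) and 0 lower, beside 4.46% and 5.45% of all tested genes. That comparison called 9 genes without cKit-positive replicate 2 and 5 without cKit-positive replicate 1. The 9 added Trp53bp1, Fanca, Xrcc6, Xrcc1, Parp1 and Ung, of which Fanca was lower by 0.62 (adjusted p = 0.0456, limma). In cKit-positive minus cKit-negative samples, 5 were higher (Apex1, Xpc, Parp1, Lig3 and Xrcc3) and 1 lower (Rad51c), beside 6.02% and 7.35%. That count was 3 without cKit-negative replicate 2 and 3 without cKit-negative replicate 3. It was 8 without cKit-positive replicate 2, of which 4 were among the 6.

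Against total marrow, 5 genes were higher in stem-enriched samples (Apex1, Parp1, Rad50, Atr and Ddb2) and 1 lower (Lig4), beside 8.46% higher and 8.28% lower of all tested genes. In cKit-positive minus total marrow samples, 5 were higher (Apex1, Parp1, Parp2, Rad50 and Xrcc3) and 2 lower (Lig4 and Rad51c), beside 9.73% and 10.4%. In lineage-depleted minus total marrow samples, 3 were higher (Apex1, Parp1 and Rad50) and 1 lower (Lig4), beside 2.67% and 2.6%. The stem-enriched comparison called 14 genes without cKit-positive replicate 2, 3 without total marrow replicate 2 and 2 without total marrow replicate 3. Without cKit-positive replicate 2, F-test calls over all probe sets rose too, so the 14 is not read as particular to these genes. The cKit-positive comparison called 4 without total marrow replicate 2 and 10 without cKit-positive replicate 2. The lineage-depleted comparison called 0 without total marrow replicate 2 or 3 or without lineage-depleted replicate 1 or 3, 1 without lineage-depleted replicate 2, 2 without total marrow replicate 1, and 6 without cKit-positive replicate 2. In cKit-negative minus total marrow samples, 0 genes were called in either direction, beside 0.594% and 0.267%, with 5 at an unadjusted p under 0.05 and 1 call without cKit-positive replicate 1 or 2.

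The other 3 comparisons were with lineage-depleted cells. In stem-enriched minus lineage-depleted samples limma called 0 genes, beside 0.817% higher and 1.89% lower of all tested genes, with 7 at an unadjusted p under 0.05 and 2 calls without cKit-positive replicate 2 (Trp53bp1, higher by 1.18, and Rad54l, which fell by 0.86, at adjusted p = 0.0338). In cKit-positive minus lineage-depleted samples it called 0, beside 0.052% and 1.51%, with 4 at an unadjusted p under 0.05 and 1 call without cKit-positive replicate 1. In cKit-negative minus lineage-depleted samples 2 were lower (Apex1 and Xpc) and 0 higher, beside 1.08% lower and 0.646% higher. That count was 6 without cKit-positive replicate 2, 1 without cKit-negative replicate 1 or 3, and 0 without cKit-negative replicate 2 or any lineage-depleted sample. In all, 11 of the 37 genes were called in at least 1 of the 10 comparisons, in 28 pairs of gene and comparison, and 26 in none. These counts have no share of all tested genes beside them, so they are not read as particular to the repair genes. The 10 comparisons share populations and are not independent of each other.

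**Figure D2:**
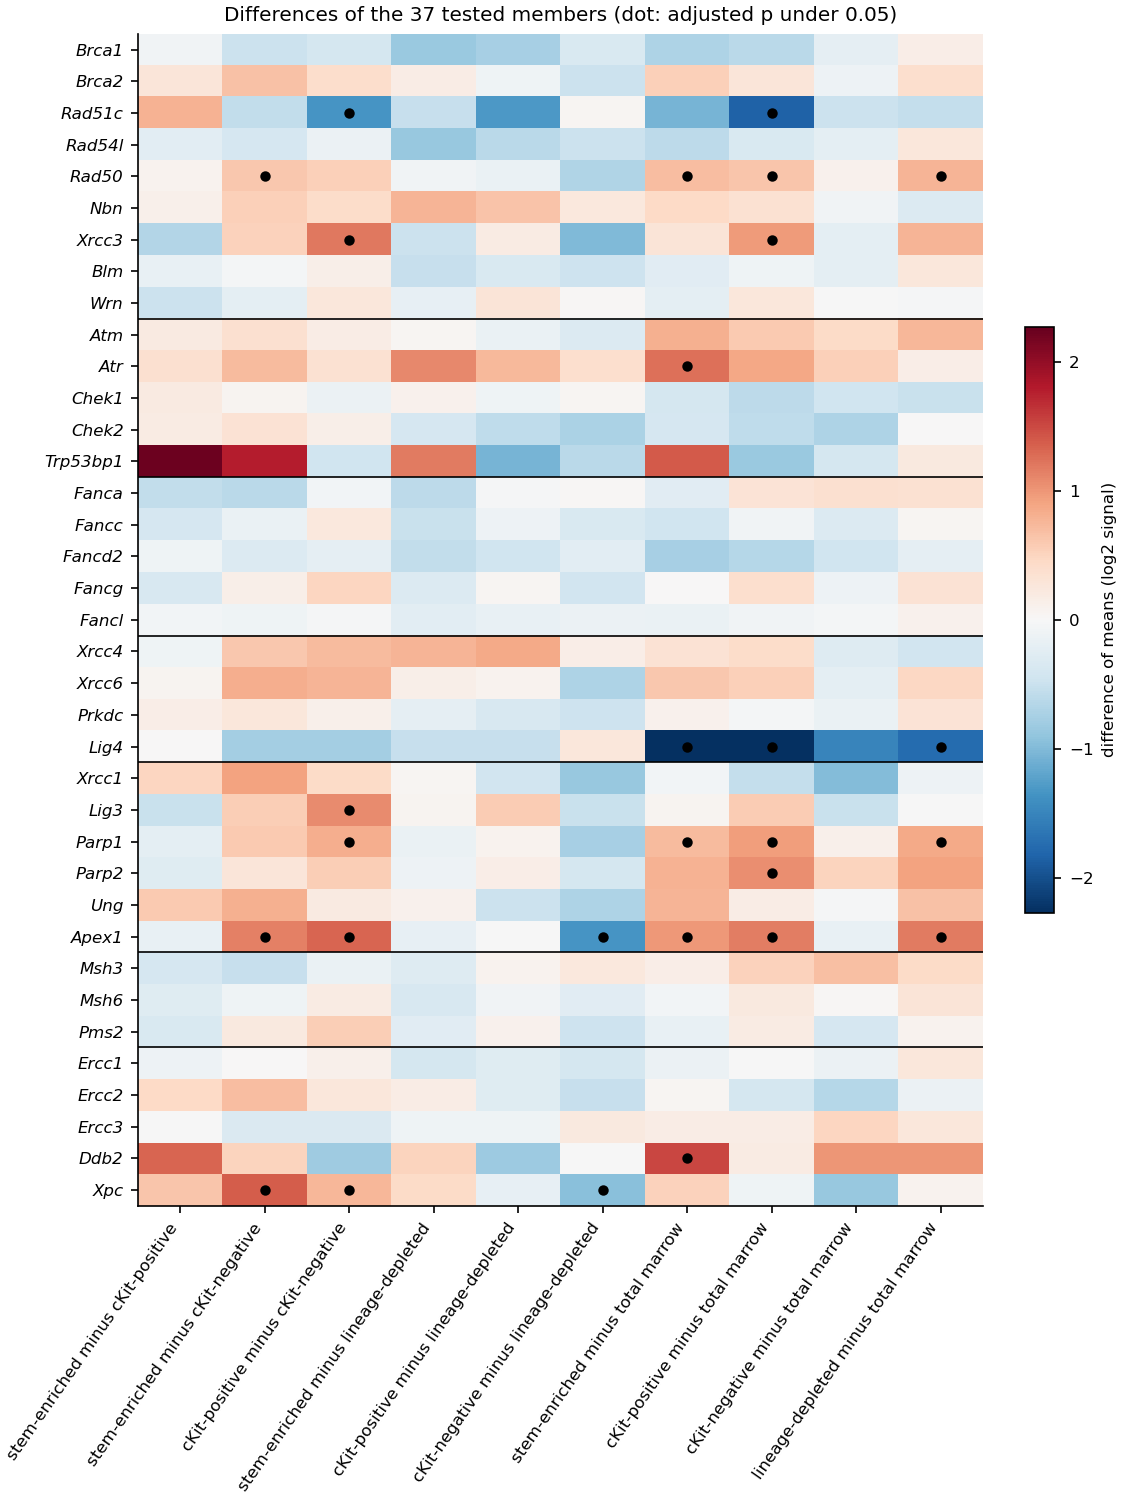
Difference of mean log2 signal for the 37 tested genes (rows, grouped by role) in each of the 10 comparisons (columns, first population minus second); red is higher and blue lower in the first population, and dots mark an adjusted p under 0.05. The dots lie in 6 of the 10 comparisons, all of which include cKit-negative or total marrow samples.

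As a description of the whole list, the median difference of the 37 genes was 0.28 in stem-enriched minus cKit-negative samples, against 0.10 over all tested genes. It was 0.20 against 0.11 in cKit-positive minus cKit-negative samples, and -0.41 against -0.07 in cKit-negative minus lineage-depleted samples. In lineage-depleted minus total marrow samples it was 0.26 against 0.10, and in stem-enriched minus total marrow samples 0.06 against 0.13. It was -0.18 against 0.02 in stem-enriched and -0.12 against 0.01 in cKit-positive minus lineage-depleted samples. Against total marrow it was 0.18 against 0.15 in cKit-positive and -0.16 against 0.01 in cKit-negative samples. In stem-enriched minus cKit-positive samples it was -0.06 against -0.01.

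In base excision and single-strand break repair, Apex1 was called in 6 of the 10 comparisons, more than any other of the 37 genes. Apex1, the endonuclease that cuts the strand at a site that has lost its base, had 12.83, 12.75 and 12.51 in stem-enriched, 13.11, 12.43 and 13.05 in cKit-positive and 11.13, 11.69 and 11.83 in cKit-negative samples. It had 12.94, 12.86 and 12.85 in lineage-depleted and 12.09, 11.76 and 11.28 in total marrow samples. Each of the 9 stem-enriched, cKit-positive and lineage-depleted samples was above each of the 6 cKit-negative and total marrow samples. Apex1 was 2.22-fold higher in stem-enriched samples than in cKit-negative ones (log2 difference 1.15 ± 0.25 SE, adjusted p = 0.00737, limma) and 2.49-fold higher in cKit-positive than in cKit-negative samples (1.32, adjusted p = 0.00231). It was 2.52-fold lower in cKit-negative than in lineage-depleted samples (-1.33, adjusted p = 0.0146). Against total marrow it was 1.98-fold higher in stem-enriched (adjusted p = 0.0129), 2.23-fold higher in cKit-positive (adjusted p = 0.0042) and 2.25-fold higher in lineage-depleted samples (adjusted p = 0.0144). Its F test had an adjusted p of 0.00105. The other 2 probe sets of Apex1, of a design that can take up related sequences, were also called by the F test (adjusted p = 0.00415 and 0.0207). Neither was called in cKit-positive (adjusted p = 0.124 and 0.47, limma) or lineage-depleted minus total marrow samples (adjusted p = 0.147 and 0.209). The last-named probe set was called only in stem-enriched minus cKit-negative samples (adjusted p = 0.00994).

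The Apex1 difference from total marrow in stem-enriched samples was lost without total marrow replicate 3 (adjusted p = 0.0845), and that of lineage-depleted samples without total marrow replicate 2 or 3 or lineage-depleted replicate 1 or 3 (adjusted p = 0.055 to 0.0971). The difference between cKit-negative and lineage-depleted samples was lost without cKit-negative replicate 1 or 2 or any lineage-depleted sample (adjusted p = 0.0547 to 0.074). With the chip lot as a block, this difference (adjusted p = 0.0622) and that of stem-enriched from total marrow samples (adjusted p = 0.159) were lost and the other 4 of Apex1 held (adjusted p = 0.0111 to 0.0456). With the scan day as a random block, these 2 (adjusted p = 0.0868 and 0.0553) and that of lineage-depleted from total marrow samples (adjusted p = 0.074) were lost. Within lot 2 the Apex1 differences were 0.94 in stem-enriched minus cKit-negative samples (adjusted p = 0.0826) and 0.99 in cKit-positive minus cKit-negative samples (adjusted p = 0.0878). In the other lots 1 population had a single array, so differences are given with no p: 1.40 in cKit-positive minus total marrow samples (lot 3), 1.14 in lineage-depleted minus total marrow samples (lot 3) and -1.77 in cKit-negative minus lineage-depleted samples (lot 1). All 3 stem-enriched arrays of chip type A were of lot 2 and all 3 total marrow arrays of lot 3. The lot block therefore compared stem-enriched with total marrow samples only through the other populations.

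**Figure D3:**
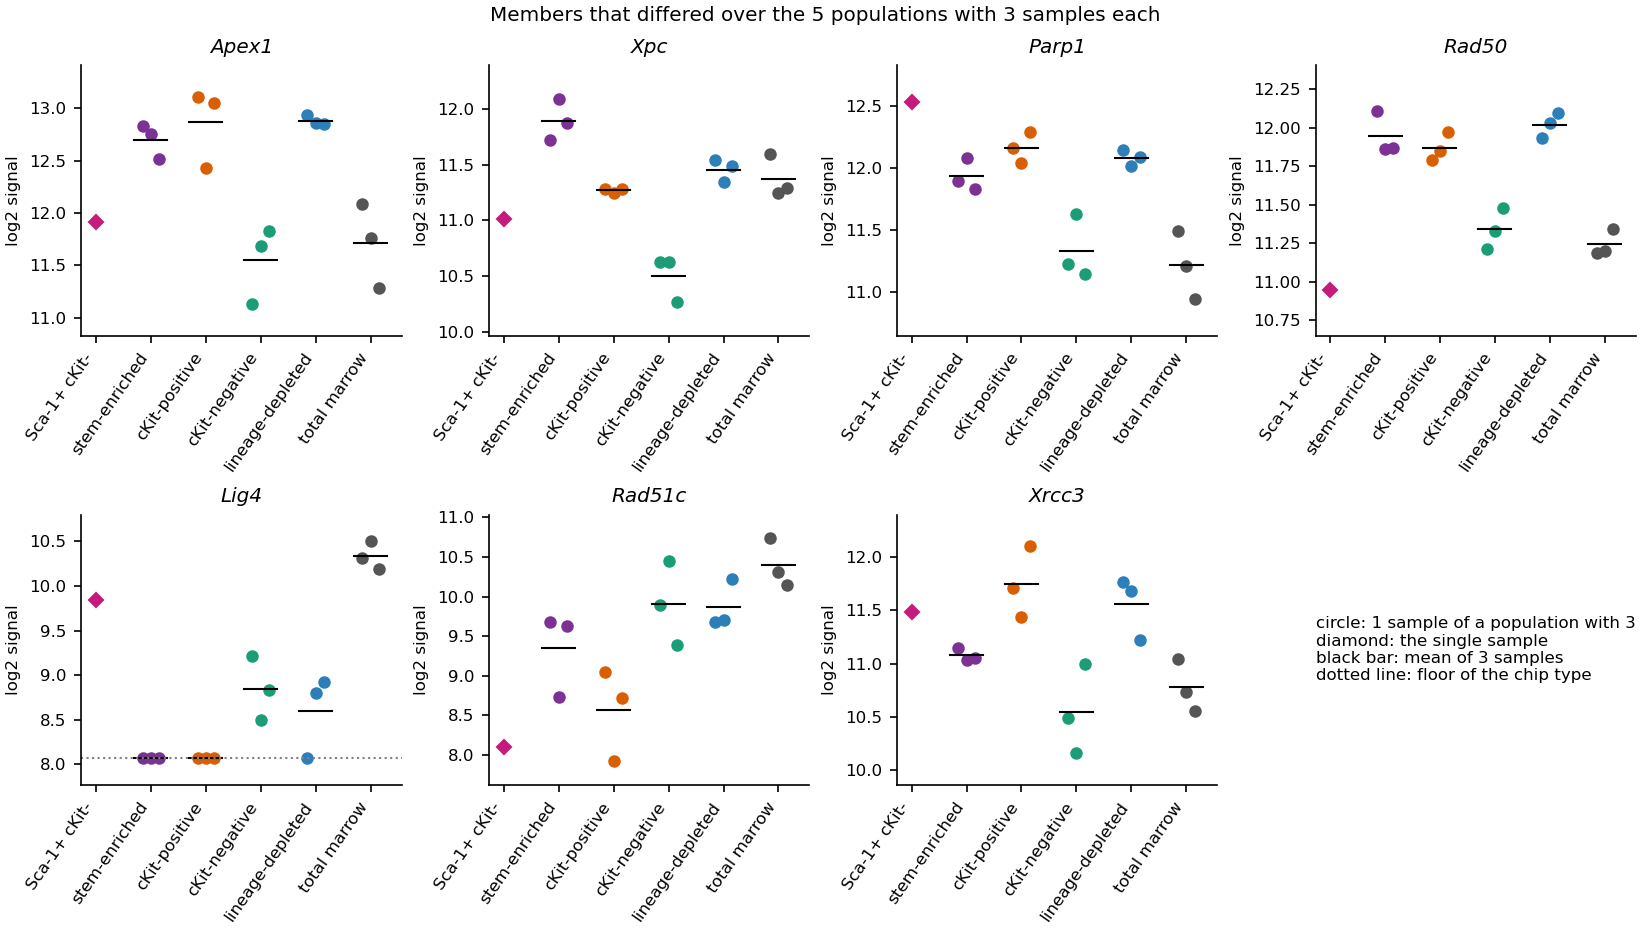
Log2 signal (vertical axis) of the 7 genes called by the F test in each sample, by population; circles are samples, bars are means of 3, the diamond is the single Sca-1+cKit- sample and the dotted line is the floor. For Apex1, Parp1 and Rad50 the stem-enriched, cKit-positive and lineage-depleted samples all lie above the cKit-negative and total marrow samples.

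Parp1, the polymerase that marks strand breaks with chains of ADP-ribose, had 11.90, 12.08 and 11.83 in stem-enriched, 12.16, 12.04 and 12.29 in cKit-positive and 11.23, 11.63 and 11.15 in cKit-negative samples. It had 12.15, 12.02 and 12.09 in lineage-depleted and 11.49, 11.21 and 10.95 in total marrow samples. The same 9 samples as for Apex1 were above the same 6. Parp1 was 1.78-fold higher in cKit-positive than in cKit-negative samples (0.83 ± 0.20 SE, adjusted p = 0.0122, limma). Against total marrow it was 1.65-fold higher in stem-enriched (adjusted p = 0.0228), 1.93-fold higher in cKit-positive (adjusted p = 0.0036) and 1.82-fold higher in lineage-depleted samples (adjusted p = 0.0222). The F test had an adjusted p of 0.00474. No other tested probe set of Parp1 was called in lineage-depleted minus total marrow samples (adjusted p = 0.284 to 0.456, limma). A second probe set was called in both cKit-positive comparisons (adjusted p = 0.00329 and 0.00206). Another was called in stem-enriched minus total marrow samples (adjusted p = 0.0415), and the remaining probe set was called in none of these.

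With the chip lot as a block, the Parp1 differences of stem-enriched and lineage-depleted from total marrow samples were lost (adjusted p = 0.272 and 0.103), and those of cKit-positive samples held (adjusted p = 0.0336 against cKit-negative and 0.0463 against total marrow). The same 2 were lost with the scan day as a random block (adjusted p = 0.0841 and 0.1). Stem-enriched and total marrow samples shared no lot on chip type A, so the lot block compared them only through other populations. Within lot 2 Parp1 differed by 0.78 in cKit-positive minus cKit-negative samples (adjusted p = 0.137). Within lot 3, where 1 cKit-positive and 1 lineage-depleted array met 3 of total marrow, it differed by 0.94 and 0.88 from total marrow samples, with no p given. The Parp1 call of cKit-positive against cKit-negative samples was lost without cKit-negative replicate 3 (adjusted p = 0.0517). That of stem-enriched against total marrow samples was lost without stem-enriched replicate 2 or total marrow replicate 2 or 3 (adjusted p = 0.0701 to 0.122), and that of lineage-depleted samples without total marrow replicate 2 or 3 or any lineage-depleted sample (adjusted p = 0.0594 to 0.13).

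Parp2, a relative of Parp1 with the same kind of activity, had 12.50, 11.19 and 12.04 in cKit-positive samples, against 11.05, 10.75 and 10.75 in total marrow samples. The groups did not overlap, and cKit-positive replicate 2 was the lowest of its population. Parp2 was 2.08-fold higher (1.06 ± 0.28 SE, adjusted p = 0.0147, limma). Within lot 3 the difference was 1.65, from 1 cKit-positive array against 3 of total marrow, with no p given. The call was lost without cKit-positive replicate 1 or total marrow replicate 2 or 3 (adjusted p = 0.0558 to 0.0575). Without cKit-positive replicate 2, Parp2 was also called in cKit-positive minus cKit-negative (0.91), stem-enriched minus total marrow (0.79) and lineage-depleted minus total marrow samples (0.91).

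Lig3, the ligase that seals single-strand breaks, had 10.87, 11.69 and 10.64 in cKit-positive samples, against 10.24, 9.94 and 9.77 in cKit-negative samples. Here cKit-positive replicate 2 was the highest. Lig3 was 2.12-fold higher (1.08 ± 0.29 SE, adjusted p = 0.0232, limma), and the call was lost without that sample (adjusted p = 0.0661) and without cKit-negative replicate 2 or 3 (adjusted p up to 0.0815). With the chip lot as a block it held (adjusted p = 0.0318), within lot 2 the difference was 1.31 (adjusted p = 0.108), and with the Gapdh ratio as a covariate the call was lost (adjusted p = 0.0996). A second Lig3 probe set differed by 0.77 and was not called (adjusted p = 0.105, limma). Xrcc1, the scaffold on which Lig3 works, had population means of 10.26, 9.77, 9.34 and 10.21 in stem-enriched, cKit-positive, cKit-negative and lineage-depleted samples and 10.32 in total marrow samples, with no call. Ung, which removes uracil from DNA, had means of 12.85, 12.25, 12.05 and 12.74 in those populations and 12.08 in total marrow samples. With cKit-positive replicate 2 left out, Xrcc1 was called in stem-enriched minus cKit-negative samples (0.91, adjusted p = 0.0375). Ung was then called in that comparison (0.80), in stem-enriched minus total marrow (0.76) and in both comparisons of cKit-positive samples with cKit-negative (0.77) and total marrow (0.74) samples. Ogg1, the glycosylase for oxidised guanine, was not tested: its signal was at the floor in 8 of the 16 samples, among them all 3 of total marrow.

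The promoters of 33 of the 41 genes (36 promoters, each of 300 bases from 250 before to 50 after the gene's start) were found in RefSeq (build GRCm38.p6). They were searched on both strands for 5 short motifs, and the 4 promoters printed here are those of genes called in a comparison that hold CACGTG, the E-box core, a palindrome that reads the same on either strand. They were chosen after the values were seen. Capitals mark each copy of CACGTG. The promoters lie on the plus strand at chr14:50924699-50924998 (Apex1), chr1:180568641-180568940 (Parp1), chr14:50807666-50807965 (Parp2) and chr11:82780859-82781158 (Lig3).
Apex1: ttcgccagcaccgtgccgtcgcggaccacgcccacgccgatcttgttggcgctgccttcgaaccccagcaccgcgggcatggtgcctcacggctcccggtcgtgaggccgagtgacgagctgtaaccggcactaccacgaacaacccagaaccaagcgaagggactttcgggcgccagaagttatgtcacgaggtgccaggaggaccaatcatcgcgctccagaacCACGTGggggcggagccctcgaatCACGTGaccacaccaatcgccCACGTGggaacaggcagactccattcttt
Parp1: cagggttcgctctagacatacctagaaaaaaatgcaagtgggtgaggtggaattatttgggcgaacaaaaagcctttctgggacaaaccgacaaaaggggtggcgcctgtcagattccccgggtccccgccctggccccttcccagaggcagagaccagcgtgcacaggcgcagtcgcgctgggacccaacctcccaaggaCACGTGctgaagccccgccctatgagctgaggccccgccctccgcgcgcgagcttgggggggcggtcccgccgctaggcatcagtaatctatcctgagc
Parp2: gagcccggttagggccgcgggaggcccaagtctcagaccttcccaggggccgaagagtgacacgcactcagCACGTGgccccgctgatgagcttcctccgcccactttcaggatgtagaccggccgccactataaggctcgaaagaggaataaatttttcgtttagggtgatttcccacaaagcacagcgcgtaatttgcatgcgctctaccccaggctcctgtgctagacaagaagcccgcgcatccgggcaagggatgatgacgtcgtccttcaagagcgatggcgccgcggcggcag
Lig3: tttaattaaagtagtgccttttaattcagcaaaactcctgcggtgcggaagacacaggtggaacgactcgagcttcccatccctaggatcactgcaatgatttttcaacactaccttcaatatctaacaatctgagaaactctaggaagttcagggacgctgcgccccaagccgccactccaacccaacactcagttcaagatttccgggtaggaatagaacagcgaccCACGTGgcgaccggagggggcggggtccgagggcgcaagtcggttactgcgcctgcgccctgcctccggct
Apex1 held 3 copies and the other 3 genes 1 each. CACGTG was in 5 of the 36 promoters (13.9%) and in 7.15% of all 32851 promoters of this length. Of the 11 genes called in a comparison, 8 had an entry and 4 of these held it, where 0 of 21 genes with an entry and no call did. This split was made for the E-box alone and after the calls were seen. A link between the motif and the calls was not tested. Among the 4 genes that were not tested, Xrcc5 held it. The E2F motif TTTCCCGC, which does not overlap the E-box, was in 6 of the 36 (16.7%), in the promoters of Brca2, Chek2, Fancg, Msh6, Rad51c and Xrcc6, and in 1.07% of all promoters. The other E2F motif TTTGGCGC was in 2.78% of the 36 and in 0.514% of all. GGGCGG was in 69.4% of the 36 and in 35.7% of all promoters, and CCAAT in 18 of the 36 and in 37.4% of all. A match of letters is a description and not a site of binding.

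In nucleotide excision repair, Xpc had the smallest adjusted p of any gene and comparison in the set. Xpc, the sensor that first binds distorted DNA across the genome, had 11.72, 12.09 and 11.87 in stem-enriched, 11.28, 11.25 and 11.28 in cKit-positive and 10.63, 10.62 and 10.27 in cKit-negative samples. It had 11.54, 11.34 and 11.48 in lineage-depleted and 11.59, 11.24 and 11.29 in total marrow samples. The 3 stem-enriched samples were above the other 12 and the 3 cKit-negative samples were below them. Xpc was 2.61-fold higher in stem-enriched samples than in cKit-negative ones (1.38 ± 0.19 SE, adjusted p = 0.0002, limma), a call that held without any 1 of the 15 samples, with the chip lot as a block (adjusted p = 0.000937) and within lot 2 (1.44, adjusted p = 0.0163). It was 1.69-fold higher in cKit-positive than in cKit-negative samples (adjusted p = 0.0172), and 1.93-fold lower in cKit-negative than in lineage-depleted samples (adjusted p = 0.0234). The first of these was lost without cKit-negative replicate 3 (adjusted p = 0.0715), held with the chip lot as a block (adjusted p = 0.0367) and came to 0.82 within lot 2 (adjusted p = 0.127). The second was lost without cKit-negative replicate 2 or 3 or any lineage-depleted sample (adjusted p = 0.0619 to 0.0985) with the lot block (adjusted p = 0.128) and with the scan day as a random block (adjusted p = 0.109). It came to -0.81 within lot 1, from 1 cKit-negative array against 2 of lineage-depleted cells, with no p given. The difference of stem-enriched from cKit-positive samples was 0.62 (adjusted p = 0.11). Leaving out cKit-positive replicate 2, Xpc was also called higher in stem-enriched (0.52) and lower in cKit-negative samples (-0.87) against total marrow.

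Ddb2, part of the complex that recognises ultraviolet damage in chromatin, had 9.19, 9.39 and 9.73 in stem-enriched samples, against 8.87, 7.56 and 7.34 in total marrow samples, the last at the floor. The groups did not overlap. Ddb2 was 2.85-fold higher in stem-enriched samples (1.51 ± 0.46 SE, adjusted p = 0.0347, limma), a size that depends on the floor. The call was lost without total marrow replicate 2 or 3 or any stem-enriched sample (adjusted p = 0.0532 to 0.154), with the chip lot as a block (2.43, adjusted p = 0.0509) and with the scan day as a random block (adjusted p = 0.104). These 2 populations shared no lot on chip type A, so the lot block compared them only through other populations. Ddb2 was over the filter level on 6 of the 16 arrays, including all 3 stem-enriched ones, and so entered the test mainly through the population where it was high. Its second probe set differed by 0.70 (adjusted p = 0.39). Ercc1, Ercc2 and Ercc3, a nuclease subunit and the 2 helicases of the opening complex, were called nowhere. Ercc1 had means of 12.60 to 12.99 over the 5 populations, Ercc2 9.94 to 10.63 and Ercc3 9.49 to 9.98. Xpa, which verifies the damage, was not tested, with signals at the floor in 3 of 16 samples.

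In homologous recombination, Rad50 was called higher than in total marrow in stem-enriched, cKit-positive and lineage-depleted samples, and Rad51c lower in cKit-positive samples alone. Rad50, of the complex that holds broken ends, had 12.11, 11.86 and 11.87 in stem-enriched, 11.79, 11.85 and 11.97 in cKit-positive and 11.21, 11.33 and 11.48 in cKit-negative samples. It had 11.94, 12.03 and 12.10 in lineage-depleted and 11.19, 11.20 and 11.34 in total marrow samples. As for Apex1 and Parp1, the 9 stem-enriched, cKit-positive and lineage-depleted samples were above the other 6. Against total marrow, Rad50 was 1.63-fold higher in stem-enriched (0.70 ± 0.18 SE, adjusted p = 0.0123, limma), 1.55-fold higher in cKit-positive (adjusted p = 0.0213) and 1.71-fold higher in lineage-depleted samples (adjusted p = 0.0199). It was 1.52-fold higher in stem-enriched samples than in cKit-negative ones (adjusted p = 0.0408).

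All 4 Rad50 calls were lost with the chip lot as a block, at differences of 0.60, 0.56 and 0.84 against total marrow (adjusted p = 0.243, 0.153 and 0.0773) and of 0.54 in stem-enriched minus cKit-negative samples (adjusted p = 0.118). They were lost too with the scan day as a random block (adjusted p = 0.054 to 0.122). As for Parp1, the lot block compared stem-enriched with total marrow samples only through other populations. Within lot 2 the difference of stem-enriched from cKit-negative samples was 0.54 (adjusted p = 0.249), and within lot 3 a single cKit-positive and a single lineage-depleted array differed from total marrow samples by 0.55 and 0.85, with no p given. The Rad50 call of stem-enriched against cKit-negative samples was lost on leaving out 11 of the 15 samples in turn, namely any stem-enriched, cKit-negative or lineage-depleted sample or total marrow replicate 2 or 3 (adjusted p = 0.0512 to 0.138). That of cKit-positive against total marrow samples was lost without cKit-positive replicate 3 or total marrow replicate 1 or 2 (adjusted p = 0.0584 to 0.0691), and that of lineage-depleted samples without any total marrow or lineage-depleted sample (adjusted p = 0.0535 to 0.0881).

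Rad51c, which works in the strand exchange steps of recombination, had 9.68, 8.72 and 9.63 in stem-enriched, 9.05, 7.92 and 8.72 in cKit-positive and 9.90, 10.44 and 9.38 in cKit-negative samples. It had 9.67, 9.70 and 10.22 in lineage-depleted and 10.74, 10.31 and 10.15 in total marrow samples. The cKit-positive samples were below every cKit-negative, lineage-depleted and total marrow sample, and were under the filter level on all 3 arrays. Rad51c was 3.57-fold lower in cKit-positive than in total marrow samples (-1.84 ± 0.37 SE, adjusted p = 0.00241, limma) and 2.54-fold lower in cKit-positive than in cKit-negative samples (-1.35 ± 0.37 SE, adjusted p = 0.0248). The first held without any 1 sample and was lost with the chip lot as a block (-1.40, adjusted p = 0.0712). Within lot 3 it was -1.35, from 1 cKit-positive array against 3 of total marrow, with no p given. The second was lost without cKit-positive replicate 2 (adjusted p = 0.0678) or cKit-negative replicate 1 or 2 (adjusted p up to 0.138), held with the lot block (adjusted p = 0.019) and came to -1.60 within lot 2 (adjusted p = 0.127). With the Gapdh ratio as a covariate it was -0.98 (adjusted p = 0.103). In stem-enriched minus total marrow samples Rad51c differed by -1.05 and was not called (adjusted p = 0.0667, limma). Without cKit-positive replicate 2 that difference was called (adjusted p = 0.024, limma).

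Xrcc3, a partner of Rad51c, had 11.15, 11.03 and 11.05 in stem-enriched, 11.71, 11.44 and 12.10 in cKit-positive and 10.49, 10.16 and 11.00 in cKit-negative samples. It had 11.77, 11.68 and 11.22 in lineage-depleted and 11.04, 10.73 and 10.56 in total marrow samples. Each cKit-positive sample was above each stem-enriched, cKit-negative and total marrow sample. Xrcc3 was 2.30-fold higher in cKit-positive than in cKit-negative samples (1.20 ± 0.31 SE, adjusted p = 0.0155, limma) and 1.96-fold higher than in total marrow samples (0.97 ± 0.31 SE, adjusted p = 0.0362). The first was lost without cKit-positive replicate 3 or cKit-negative replicate 2 (adjusted p = 0.0628 to 0.0867), and the second without cKit-positive replicate 1 or 3 or total marrow replicate 2 or 3 (adjusted p = 0.0507 to 0.133). Xrcc3 is on chip type B, where all total marrow arrays and no other tested ones were of 1 lot, so lot and total marrow cannot be told apart there. Its second probe set, of the design that can take up related sequences, differed by 0.45 and 0.14 (adjusted p = 0.512 and 0.849).

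The other 6 tested genes of homologous recombination were called in no comparison. Brca1 and Brca2, which promote repair by recombination and are known as tumour suppressors, had population means of 10.83 to 11.68 and 10.75 to 11.42. Nbn, the partner of Rad50, had 9.15 to 9.92 and Rad54l, a motor that remodels the joint molecule, 11.48 to 12.34. The helicases Blm and Wrn had 11.16 to 11.69 and 9.92 to 10.41. Rad52, an annealing protein, was not tested, with signals at the floor in 2 of 16 samples.

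End joining held the widest difference that passed the test. Lig4, the ligase that joins broken ends and is needed for antigen receptor rearrangement, was at the floor of 8.07 in all 3 stem-enriched and all 3 cKit-positive samples, and had 9.22, 8.49 and 8.83 in cKit-negative samples. It had 8.07, 8.80 and 8.92 in lineage-depleted and 10.32, 10.50 and 10.20 in total marrow samples. The signals in total marrow were 1278, 1450.5 and 1172, above those of the other 12 samples. Lig4 was at least 4.83-fold lower in stem-enriched (adjusted p = 0.00267, limma) and in cKit-positive samples (adjusted p = 0.00236) than in total marrow samples, a bound set by the floor. It was 3.35-fold lower in lineage-depleted than in total marrow samples (-1.74 ± 0.47 SE, adjusted p = 0.0407), with 1 of the 3 lineage-depleted samples at the floor. The Lig4 probe set passed the filter only through the 3 total marrow samples and the single Sca-1+cKit- sample, so among tested genes it had to differ. It is on chip type B, where lot and total marrow cannot be told apart. The mean of 11 B-lineage markers (of 12 listed) was 9.47 to 10.23 in stem-enriched, 8.50 to 9.37 in cKit-positive, 9.18 to 10.03 in cKit-negative, 9.42 to 9.96 in lineage-depleted and 10.45 to 10.74 in total marrow samples, and its part in the Lig4 result was not tested.

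The first 2 Lig4 calls held without any 1 sample, which is no support, since the filter had fixed that Lig4 would differ. The call of lineage-depleted against total marrow samples was lost without stem-enriched replicate 2, cKit-negative replicate 3 or any total marrow or lineage-depleted sample (adjusted p = 0.0508 to 0.161), with the replicate number as a block (adjusted p = 0.0588) and with the scan day as a random block (adjusted p = 0.0738). The scan-day correlation on chip type B was estimated at 0, so that last block left the Lig4 fit itself unchanged. Its adjusted p moved only through the joint adjustment over both chip types. Xrcc6, the smaller Ku subunit that caps broken ends, had means of 11.63, 11.58, 10.81 and 11.51 in stem-enriched, cKit-positive, cKit-negative and lineage-depleted samples and 11.03 in total marrow samples. It was called in no comparison with all 15 samples. Without cKit-positive replicate 2 it was called in 5, at 0.82 and 1.03 in stem-enriched and cKit-positive minus cKit-negative samples, -0.70 in cKit-negative minus lineage-depleted samples, and 0.60 and 0.81 in stem-enriched and cKit-positive minus total marrow samples. Xrcc5, the other Ku subunit, was not tested: its signal was at the floor in 2 of the 3 cKit-negative samples. Xrcc4, the partner of Lig4, had means of 9.48 to 10.35 and Prkdc, the kinase that binds Ku, 8.96 to 9.43, with no call.

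Of the checkpoint genes, 1 of 5 was called in a comparison. Atr, the kinase that responds to single-stranded DNA, had 11.40, 10.99 and 11.91 in stem-enriched samples, against 10.40, 9.83 and 10.30 in total marrow samples. The groups did not overlap. Atr was 2.39-fold higher in stem-enriched samples (1.26 ± 0.40 SE, adjusted p = 0.0393, limma). The call was lost without stem-enriched replicate 1 or 3 or any total marrow sample (adjusted p = 0.0584 to 0.17). With the scan day as a random block its adjusted p was 0.054 (limma). The scan-day correlation on chip type B was estimated at 0, so that block left the Atr fit itself unchanged. Its adjusted p moved only through the joint adjustment over both chip types. This probe set is on chip type B, where lot and total marrow cannot be told apart. A second Atr probe set differed by 0.32 (adjusted p = 0.552) in this comparison, and by 1.13 in cKit-positive minus cKit-negative samples (adjusted p = 0.0252), where the first differed by 0.35 (adjusted p = 0.632).

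Trp53bp1, a chromatin-bound mediator that steers breaks towards end joining, is described in full because its calls turned on which cKit-positive samples entered the fit, and it was chosen for this after its values were seen. It had 12.74, 13.32 and 13.43 in stem-enriched, 12.30, 8.51 and 11.99 in cKit-positive and 11.70, 11.05 and 11.39 in cKit-negative samples. It had 11.77, 11.76 and 12.42 in lineage-depleted and 11.94, 11.76 and 11.61 in total marrow samples. The 3 stem-enriched samples were above the other 12, and cKit-positive replicate 2 was the lowest of the 15. With all 15 samples the differences of stem-enriched samples were 2.23 from cKit-positive, 1.78 from cKit-negative, 1.18 from lineage-depleted and 1.39 from total marrow samples, with adjusted p = 0.0867, 0.105, 0.426 and 0.173 (limma). Without cKit-positive replicate 2 they were 1.02, 1.78, 1.18 and 1.39, and all 4 were called (adjusted p = 0.0444, 6.37e-05, 0.00699 and 0.00041). The difference from cKit-positive samples was also called without cKit-positive replicate 1 or 3 and with the chip lot as a block, and the other 3 with only the compared populations in the fit. The 4 other tested probe sets of Trp53bp1 had F-test adjusted p = 0.601 to 0.817, and in none of them were the 3 stem-enriched samples above the other 12.

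Atm, the kinase that responds to double-strand breaks, had means of 12.33, 12.12, 11.96 and 12.28 in stem-enriched, cKit-positive, cKit-negative and lineage-depleted samples and 11.52 in total marrow samples, with no call. In the fit without cKit-positive replicate 2 it was called higher than in total marrow in stem-enriched (0.81), cKit-positive (1.16) and lineage-depleted samples (0.75). This Atm probe set is on chip type B, where lot and total marrow cannot be told apart. Chek1 and Chek2, the kinases that pass the signal on, had means of 10.86 to 11.46 and 10.88 to 11.60 and were called nowhere.

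The 5 Fanconi anemia genes were called in no comparison with all 15 samples. Fanca, Fancc, Fancg and Fancl, subunits of the core complex that attaches ubiquitin, had population means of 10.92 to 11.54, 11.17 to 11.68, 10.09 to 10.59 and 11.34 to 11.58. Fancd2, the protein that this complex modifies, had 12.03 to 12.78, with the lowest mean in stem-enriched and the highest in total marrow samples. Fancd2 was called lower in stem-enriched than in total marrow samples when cKit-positive replicate 2 was left out (-0.76, adjusted p = 0.0249, limma). This probe set is on chip type B, where lot and total marrow cannot be told apart. Another Fancd2 probe set went the other way, with 10.04, 9.95 and 10.02 in stem-enriched and 9.54, 9.19 and 9.04 in total marrow samples. The remaining tested ones were lower on average in stem-enriched samples, so the direction of Fancd2 depends on the probe set. A second Fancc probe set was called higher in stem-enriched (1.10, adjusted p = 0.0328) and cKit-positive (1.31, adjusted p = 0.0112) than in total marrow samples, where the first had -0.46 and -0.07, so the direction of Fancc depends on the probe set.

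Mismatch repair genes were also called nowhere. Msh3 and Msh6, which recognise loops and mispairs, had population means of 10.05 to 10.73 and 11.08 to 11.44, and Pms2, which nicks the strand, 10.94 to 11.51. Of the 31 other tested probe sets of the 37 genes, 3 were called by the F test, 2 of Apex1 and 1 of Parp1. For the genes called in a comparison, their other tested probe sets had the same sign in it.

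A second list of 97 DNA repair genes outside the set had 85 with a probe set and 79 tested, of which 9 (11.4%) were called by the F test, beside 20.0% of all tested genes. Cdkn1a, the p53-induced inhibitor of cell cycle kinases, was higher in stem-enriched samples than in cKit-positive (2.09, adjusted p = 0.0286), lineage-depleted (1.87, adjusted p = 0.0468) and total marrow samples (2.38, adjusted p = 0.00263, limma). Cdc25a, a phosphatase that drives the cell cycle, was lower in stem-enriched than in cKit-positive (-1.02, adjusted p = 0.0457) and lineage-depleted samples (-0.99, adjusted p = 0.0492). These were the 2 calls of the list in each of stem-enriched minus cKit-positive and stem-enriched minus lineage-depleted samples. In cKit-positive minus cKit-negative samples Tdp1, Gtf2h4 and Rad9a were higher (1.14, 1.19 and 1.42), and Rad9a was lower in cKit-negative than in lineage-depleted samples (-1.82). Tdp1 removes protein trapped on a strand end, Gtf2h4 is part of the complex of Ercc2 and Ercc3, and Rad9a is part of the checkpoint clamp.

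Against total marrow, 7 genes of that list were higher and 5 lower in stem-enriched samples, led by Cdkn1a, Mutyh (1.76) and Poli (1.62), and by Polm (-1.79), Fen1 (-1.23) and Clspn (-1.11). In cKit-positive minus total marrow samples 8 were higher and 5 lower, led by Poll (1.52), Mad2l2 (1.46) and Tdp1 (1.34), and by Ppm1d (-2.11), Polm (-1.60) and Ube2b (-1.39). In lineage-depleted minus total marrow samples Gtf2h4 (1.20) and Tdp1 (1.08) were higher and Neil1 (-1.06) was lower. In stem-enriched minus cKit-negative, cKit-positive minus lineage-depleted and cKit-negative minus total marrow samples limma called 0 of the 79, with 11, 7 and 5 at an unadjusted p under 0.05.

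A list of 43 cell cycle genes is given beside these. Of the 43, 42 were tested and 10 (23.8%) were called by the F test. In stem-enriched minus total marrow samples 2 were higher and 9 lower, and in cKit-positive minus total marrow samples 5 were higher and 6 lower, 11 of 42 (26.2%) in each, where the shares of all tested genes are those given above. In stem-enriched minus cKit-negative samples 1 was higher and 3 lower, and in cKit-positive minus cKit-negative samples 1 was higher and 5 lower. In stem-enriched minus lineage-depleted samples 2 were lower, and in lineage-depleted minus total marrow samples 1 was higher and 2 lower. Their mean was 11.80 to 12.06 in stem-enriched, 11.64 to 12.24 in cKit-positive, 11.96 to 12.51 in cKit-negative, 12.21 to 12.52 in lineage-depleted and 12.16 to 12.31 in total marrow samples. The part of proliferation in the repair results was not tested.

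The single Sca-1+cKit- sample has no replicate, so its values have no test and are set against the range of the other 15 samples. It was below all 15 in 8 of the 37 genes (21.6%), beside 7.36% of all tested genes, and above all 15 in 3 (8.11%), beside 7.94%. Those below were Brca1, Rad50, Blm, Chek1, Chek2, Fanca, Fancl and Lig3, and those above were Parp1, Ercc3 and Ddb2. Chek2 was at 9.22 in this sample, against 10.54 in the lowest of the other 15, and was the only one of the 37 at least 1 log2 unit below them, beside 0.773% of all tested genes. None of the 37 was at least 1 log2 unit above them, beside 0.602%. Parp1 was at 12.53 against 12.29 in the highest of the other 15, and Ddb2 at 9.92 against 9.73. The median difference from the median of the 15 was -0.26 over the 37 genes, -0.27 over the 79 other repair genes, -0.40 over the 42 cell cycle genes and -0.04 over all tested genes. Of the 79, 8 were below all 15 and 3 above, and of the 42 cell cycle genes 7 were below and 1 above. Against the 14 others without cKit-positive replicate 2, 10 of the 37 were below (27.0%, beside 9.70% of all tested genes) and 4 above (10.8%, beside 9.86%). In this sample the T and NK marker mean was 11.91, the B-lineage mean 11.11 and the granulocyte mean 11.18, and their part in these values was not tested.

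**Figure D4:**
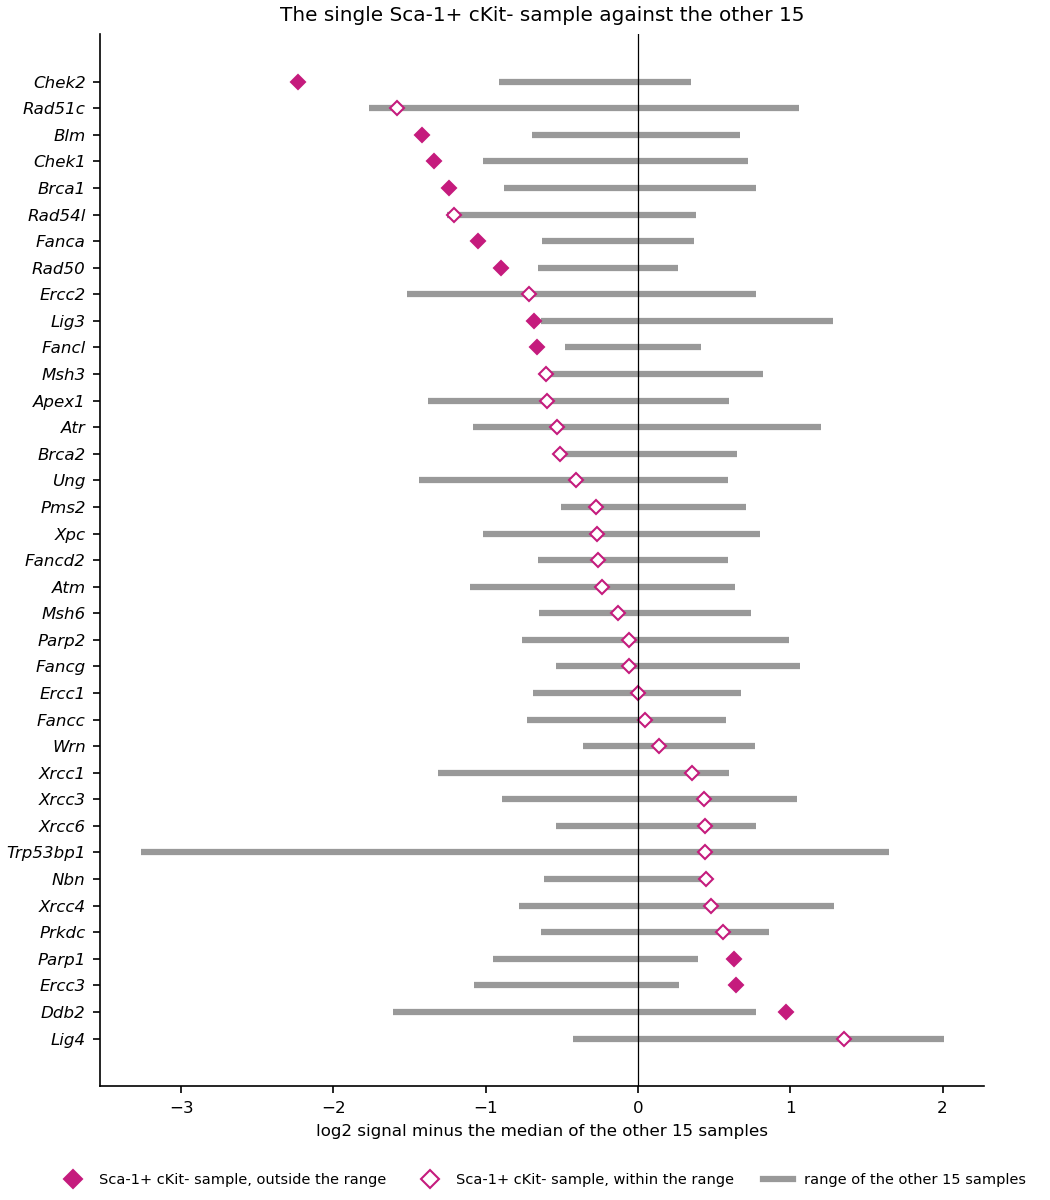
Log2 signal of the single Sca-1+cKit- sample (diamonds, filled where outside the range) minus the median of the other 15 samples, for the 37 tested genes, with grey bars for the range of those 15; the horizontal axis is in log2 units. Chek2 lies farthest outside its bar, and 8 diamonds lie below and 3 above the bars.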

How the data were processed

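RNA of 16 samples was hybridised to 32 arrays of 2 chip types. The deposited values are MAS5 signals, a linear intensity per probe set, per the submitters' processing notes (version not given in the sources used here). Every array had a 2% trimmed mean of about 1500, so the deposited signals were not scaled again. The medians were less alike. On chip type A the median signal of cKit-positive replicate 2 was 880, against 453 to 581 in the other samples. The deposited instrument records, which hold other values such as chip lot and scan day, gave the batches. Genes were named from the platform annotation: 34945 of 45037 probe sets had 1 symbol, 932 several and 9160 none here.

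Signals were raised to the 25th percentile of the chip type and put on the log2 scale. Probe sets over the 50th percentile on at least 3 of 16 arrays were tested, 28949 in all. Models were fitted per chip type over 15 samples with limma 3.58.1 in R 4.3.3 (lmFit, eBayes with a trend), with population as the factor. P-values were two-sided and adjusted by Benjamini-Hochberg over both chip types within a comparison, with a threshold of 0.05, and differences are first population minus second with the standard error (SE). In fits within 1 lot, a population with 1 sample was assumed to vary like the others. Plots were drawn with matplotlib 3.10.9, and tables made with pandas 2.3.3 and NumPy 2.4.6 under Python 3.11.15. The fit was tested on simulated data. The number of arrays limits the precision.

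A gene was represented by its probe set of highest mean, leaving out IDs ending in _x_at. Values in every sample are given for genes called by the F test or in stem-enriched minus cKit-positive samples, and other genes of the list by at most 3 each way per comparison, as the largest differences called. For the single sample, genes at least 1 log2 unit outside the others are named. The genes, the lists and this rule were chosen with earlier results of these data known. Replicate numbers did not pair samples: deviations of same-numbered samples correlated at -0.08 to 0.12 over 30 pairs, with 1 over 0.1. Alternatives were quantile normalization, other floors and filters, no variance trend, blocks for replicate number, chip lot and scan day, the Gapdh ratio as a covariate, a fold of 2, fits of the compared populations alone, each sample left out, and the mean over probe sets. Fits within lots and within shared scan days, and the single sample without cKit-positive replicate 2, were chosen after seeing the data. Promoters are from RefSeq, build GRCm38.p6.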

Additional observations from a re-analysis of the deposited data

How the results depend on the processing

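None of the named differences changed sign: over all settings 626 kept their side of the threshold and 176 lost it. Several settings, such as leaving out a sample of a population not compared, cannot change the difference itself. The differences were also chosen because they passed, so the stable sign is no independent support. Counts of called genes ranged on leaving out 1 sample from 5 to 12 for the F test, 0 to 2 for stem-enriched minus cKit-positive, 2 to 9 for stem-enriched minus cKit-negative, 3 to 8 for cKit-positive minus cKit-negative, 0 to 2 for stem-enriched minus lineage-depleted, 0 to 1 for cKit-positive minus lineage-depleted, 0 to 6 for cKit-negative minus lineage-depleted, 2 to 14 for stem-enriched minus total marrow, 4 to 10 for cKit-positive minus total marrow, 0 to 1 for cKit-negative minus total marrow and 0 to 6 for lineage-depleted minus total marrow samples. Samples that moved a count by over 1.5 times are named beside it above.

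Other settings moved these counts by over 1.5 times. Stem-enriched minus cKit-positive (0) had 1 with no filter and 1 with the lot block. Stem-enriched minus cKit-negative (3) had 5 with no filter, 5 with the filter at the 75th percentile, 5 with only the compared populations and 1 within lot 2. For cKit-positive minus cKit-negative (6) there was 1 with only the compared populations, 0 within lot 2 and 0 within shared scan days. Stem-enriched minus lineage-depleted (0) had 1 with the Gapdh ratio and 2 with only the compared populations. For cKit-negative minus lineage-depleted (2) there were 4 with no filter, 4 with the 75th percentile, 4 with the Gapdh ratio, 1 at a fold of 2, and 0 with the lot block, the scan-day block or within lot 1. Stem-enriched minus total marrow (6) had 1 with the lot block, 1 with the scan-day block, 3 at a fold of 2, 14 with only the compared populations and 3 with the mean over probe sets. For cKit-positive minus total marrow (7) there were 4 with the lot block, 4 at a fold of 2, 2 with only the compared populations and 1 within lot 3. For cKit-negative minus total marrow (0) there were 2 with the floor at the 50th percentile, 2 with no filter, and 1 each with the 75th percentile, no variance trend and the Gapdh ratio. Lineage-depleted minus total marrow (4) had 1 with the lot block, 0 with the scan-day block, 2 at a fold of 2, 0 within lot 3 and 2 with the mean over probe sets. The cause was not tested, beyond the fewer samples of the fits within lots and days. Of the 5 tested populations, only cKit-positive and cKit-negative samples shared scan days, so scan day and population otherwise cannot be told apart. Stem-enriched and total marrow samples shared no lot on chip type A, so the lot block compared them only through other populations. Within lots 1 and 3 of chip type A a population compared had 1 array, so those counts rest on its assumed spread. The replicate block gave 8 genes in the F test, 7 in cKit-positive minus cKit-negative and 7 in stem-enriched minus total marrow samples, and ended 2 named calls, Rad50 in stem-enriched minus cKit-negative (adjusted p = 0.0538) and Lig4 in lineage-depleted minus total marrow samples (adjusted p = 0.0588). Quantile normalization moved the median difference of all tested probe sets in cKit-positive minus total marrow samples to 0.05, against 0.15 without it.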
